A study of Mus musculus with 34 samples.

Results

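The comparison concerns hematopoietic stem cells (HSCs) of aged mice in which the measured Ythdf2 transcript went with the genotype label, 4 Ythdf2 CKO mice (78, 81, 94 and 122) against 3 Ythdf2 CTL mice (65, 99 and 114). These 7 mice, of 9 aged mice and 17 mice in all, were chosen by their level of Ythdf2, and they hold 13 of the 34 libraries of the series. CKO and CTL stand here for the labels KO and WT of the series. The mouse labelled aged KO 121 (CKO 121) and the mouse labelled aged WT 124 (CTL 124) were left out because their Ythdf2 level went against the label. Because a measured transcript chose the mice, the difference between the 4 and the 3 mice is described below, its adjusted p-values only rank the genes, and tests are given in the young mice, which the choice did not use, and in all 9 aged mice as labelled.

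All mice were on a C57BL/6 background, and the aged mice were 1 yr old. CKO mice carried a floxed Ythdf2 that a Cre recombinase (Vav-iCre, active in hematopoietic cells) had deleted, and CTL mice carried the floxed allele without Cre, so that both groups shared the allele, which places GFP in front of YTHDF2. Young mice, 4 CKO and 4 CTL, had the same genotypes. Each library was made by SMART-Seq2 from polyA RNA of 100 sorted LSK CD48-CD150+ cells, and mice had libraries A and B, which were summed. Library B of aged CTL 99 held 187034 counts and was left out, as the submitters did. The other libraries of the 7 mice held from 2009239 to 7784627 counts, and totals per mouse were from 4856856 to 10125624 in CKO and from 2218618 to 9402178 in CTL, the lowest being the single library of CTL 99. A level is given as CPM, the usual count scaled to library size, with TMM factors over the 9 aged mice (and, for young mice, over the 8 young ones). It follows the share of a transcript in the RNA of the sorted pool, so that fewer cells with a transcript and less transcript per cell cannot be told apart. A floor of 3 counts, which covers counting error only, was 0.0985 CPM over the 4 CKO mice and 0.179 CPM over the 3 CTL mice.

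YTHDF2 is a cytoplasmic reader of the m6A mark on mRNA, and it brings marked transcripts to the CCR4-NOT deadenylase and so to decay. HSCs at the top of hematopoiesis include cells that already express platelet genes and lean towards the megakaryocyte lineage, and such cells are known to become more frequent with age. The sorted cells had the genes that define HSCs: the stem cell factor receptor Kit was between 435.1 and 617.8 CPM in the 7 mice, and Procr, an HSC surface marker, between 49.7 and 114.1 CPM. Slamf1, which encodes the CD150 of the sort, was between 106.8 and 161.6 CPM in CKO mice and between 29.2 and 83.0 CPM in CTL mice, apart and not called (log2 fold change 1.18 ± 0.30, SE; adjusted p = 0.124 by edgeR). Of 20 HSC identity genes, all 20 were tested and 0 were called, with a median log2 fold change of 0.0548. Such a count says little, because 0.208% of all genes tested were called higher and 0.125% lower. In 4 of the 20 the groups were apart with CKO higher, and in 1 with CKO lower, against 6.23% and 5.31% of all genes. Reads of Y-linked genes were present at 203.4 CPM in CKO 78 and 223.6 CPM in CTL 99, and at most 0.191 CPM in the other aged mice, so that 1 mouse of each genotype among the 7 was male by these reads.

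Ythdf2 itself (chromosome 4, 132184916 to 132212256 of GRCm38) was at 78.4, 91.0, 77.5 and 74.7 CPM in CKO 78, 81, 94 and 122, and at 184.4, 173.4 and 145.5 CPM in CTL 65, 99 and 114. The groups did not overlap, with a log2 fold change of -1.06 ± 0.17 (SE), which the choice of mice fixed and which is given without a test. CKO 121 had 194.0 CPM and CTL 124 had 71.6 CPM, each beyond the far end of the other genotype. Counts were per gene and not per exon, so reads from exons outside the floxed one are part of these levels. Among young mice, which were not chosen, the level was 54.0 ± 3.98 CPM in CKO and 104 ± 15.1 CPM in CTL (SD, n = 4 each; adjusted p = 0.0406 by edgeR's quasi-likelihood test).

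Across 12005 genes, 25 were called higher in the 4 CKO mice, 0.208% of the genes tested, and 15 were called lower, Ythdf2 among them, 0.125% of the genes tested (edgeR's quasi-likelihood test, Benjamini-Hochberg adjusted p under 0.05). Adjusted p-values of the 39 genes other than Ythdf2 were between 0.000361 and 0.0497, and the nearest genes outside the list were a septin row whose symbol had turned into a date (adjusted p = 0.0506 by the same test) and Rhoj (adjusted p = 0.0514). All 39 kept the 4 CKO mice apart from the 3 CTL mice. The groups were apart in 6.23% of all genes tested with CKO higher and in 5.31% with CKO lower. The median log2 fold change over all genes was -0.0086. In the fits that left out 1 mouse at a time, 12 genes were called each time: Mt1, Mt2, Pf4, Slpi, Clca3a1, Itga2b, Clu, Selp, Ache, Ebi3, Ltb and Fbp1. The calls, higher and lower, were 9 and 8 without CKO 78, 17 and 7 without CKO 81, 14 and 6 without CKO 94, and 10 and 4 without CKO 122. They were 26 and 12 without CTL 65, 34 and 9 without CTL 99, and 29 and 32 without CTL 114.

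Libraries of 1 mouse also differed, and each of the 12 libraries of the 6 mice with 2 libraries was left out in turn. Of the 39 genes, 35 kept the groups apart each time; the exceptions were Vcam1, Stab2, Selenop and Gbp8. The 7 genes called each time were Mt1, Mt2, Slpi, Itga2b, Ebi3, Ltb and Fbp1. Library A of CTL 114 stood apart from its library B in platelet and other genes: Pf4 was at 36.2 against 333.6 CPM, Clu at 4.28 against 96.8 CPM, Clca3a1 at 4.67 against 121.8 CPM, Gp1bb at 3.503 against 60.3 CPM, Vwf at 7.01 against 101.1 CPM and Slamf1 at 0 against 58.8 CPM. Without that library CTL 114 was at 334.9 CPM of Pf4, the log2 fold change of Pf4 was 1.98, that of Clu 2.43 and that of Clca3a1 1.66, all called by edgeR, and 27 genes were called higher and 20 lower. Without library B of CTL 114 the calls were 5 and 3, Pf4 (adjusted p = 0.144 by edgeR), Clu (0.237) and Clca3a1 (0.205) not among them.

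**Figure D1:**
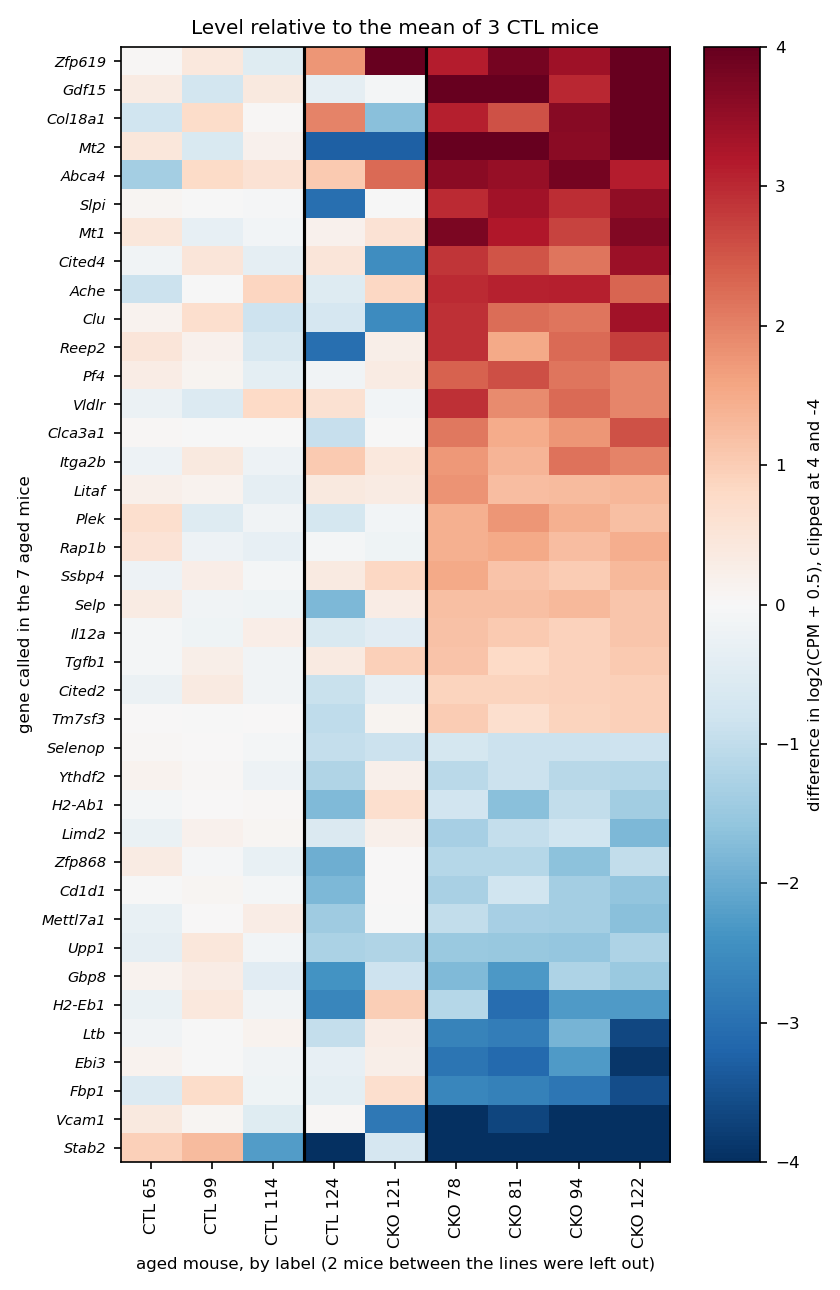
Heat map of 39 of the 40 genes called in the 7 aged mice (rows, ordered by log2 fold change) in the 9 aged mice (columns); color is log2(CPM + 0.5) minus the mean of the 3 CTL mice 65, 99 and 114, clipped at 4 and -4. The columns between the black lines are CTL 124 and CKO 121; for most of the 25 higher genes both resemble the 3 CTL mice, whereas for several lower genes CTL 124 resembles the 4 CKO mice.

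The genes of smallest adjusted p were Pf4 and the metallothioneins, small cysteine-rich proteins that bind zinc and copper and that zinc, glucocorticoids and oxidative stress are known to induce. Mt1 (chromosome 8, 94178883 to 94180327) was at 679.7, 466.2, 326.4 and 658.3 CPM in CKO 78, 81, 94 and 122, and at 68.3, 39.8 and 46.2 CPM in CTL 65, 99 and 114. Every CKO mouse lay several fold above every CTL mouse, a log2 fold change of 3.35 ± 0.30 (SE). Mt2, its neighbour (chromosome 8, 94172618 to 94173567), was at 140.5, 77.3, 58.3 and 134.5 CPM in CKO mice and at 6.04, 2.62 and 4.96 CPM in CTL mice, a log2 fold change of 4.39 ± 0.41 (SE). CKO 121 held no Mt2 count and 74.9 CPM of Mt1, CTL 124 held no Mt2 count and 56.1 CPM of Mt1, and with both included as labelled the log2 fold changes were 3.06 ± 0.49 for Mt1 and 4.55 ± 1.19 for Mt2 (SE; adjusted p = 0.205 and 0.297, quasi-likelihood test of edgeR over 9 mice). Mt1 rose in young HSCs from 17.4 ± 3.80 to 63.9 ± 16.4 CPM (SD, n = 4 each; adjusted p = 0.0117 by edgeR's test), and Mt2 was at 4.23 ± 3.20 CPM in CKO against 0.686 ± 0.853 CPM in CTL, with overlapping groups (adjusted p = 0.570). Reads could have been split between these similar genes by the counting. Of 20 genes of metallothionein and zinc handling tested, Mt1 and Mt2 were the 2 called, against 0.208% of all genes tested, and the median of the list was -0.0464. The promoters of both genes are shown because they were called side by side. They come from RefSeq on GRCm38.p6 and run from 250 bases before to 50 bases after a start site, chr8:94178839-94179138 and chr8:94172368-94172667, both on the plus strand, with capitals for the core of the metal response element (TGCACNC or TGCGCNC, either strand).
Mt1: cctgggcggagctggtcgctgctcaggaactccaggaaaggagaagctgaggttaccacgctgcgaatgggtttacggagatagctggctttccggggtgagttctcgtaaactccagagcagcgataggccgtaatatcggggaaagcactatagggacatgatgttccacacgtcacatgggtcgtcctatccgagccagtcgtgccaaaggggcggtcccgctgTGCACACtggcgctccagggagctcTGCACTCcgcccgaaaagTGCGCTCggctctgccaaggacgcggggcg
Mt2: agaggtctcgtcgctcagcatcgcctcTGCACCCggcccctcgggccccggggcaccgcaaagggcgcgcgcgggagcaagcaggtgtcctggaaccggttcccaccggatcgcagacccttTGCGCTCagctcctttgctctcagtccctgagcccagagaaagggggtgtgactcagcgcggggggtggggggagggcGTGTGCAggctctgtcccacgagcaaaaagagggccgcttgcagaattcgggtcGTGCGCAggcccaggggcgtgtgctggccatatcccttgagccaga
The Mt1 window held 3 matches and the Mt2 window 4. The same core occurred in 28.2% of the 27025 genes with such a window, in 40.7% of the 9518 tested genes with one, and in 9 of the 21 higher genes with one (42.9%).

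Among the gene lists examined, that of megakaryocytes and platelets held the most called genes. The lists were drawn up with earlier results of these data known, so the shares below describe the list and are not independent support. Of 38 listed genes, 37 were tested, 6 were called higher and 0 lower, against 0.208% and 0.125% of all genes tested, and 32 had a positive log2 fold change, against 49.2% of all genes, with a median of 0.759. The 5 negative members included Thbs1 (-2.15) and Nbeal2 (-1.08), neither called. Summed over the list, the level was between 10030 and 11630 CPM in the 4 CKO mice and between 4847 and 6860 CPM in the 3 CTL mice. CKO 121 had 5861 CPM and CTL 124 had 4762 CPM, both within or below the range of the 3 CTL mice. In young mice the sum was between 7258 and 10100 CPM in CKO and between 4779 and 5756 CPM in CTL, 5 of 35 tested genes were called higher (edgeR's adjusted p below 0.05), against 0.13% of all genes tested, and 30 of the 35 were positive, against 49.9%, with a median of 0.496.

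Pf4, which encodes the platelet chemokine CXCL4, stored in alpha granules and known to act on HSC quiescence (chromosome 5, 90772435 to 90773383), was at 1243, 1433, 1061 and 945.3 CPM in CKO 78, 81, 94 and 122. In CTL 65, 99 and 114 it was at 294.5, 262.1 and 183.2 CPM, so that the groups did not overlap (log2 fold change 2.24 ± 0.21, SE). CKO 121 had 302.9 CPM and CTL 124 had 221.4 CPM. Pf4 rose also in young HSCs, with a log2 fold change of 1.80 ± 0.34 (SE; adjusted p = 0.0488 by edgeR), which became 1.32 ± 0.37 (adjusted p = 0.429) once Y-linked expression entered the fit. Itga2b, the alphaIIb integrin CD41 of the fibrinogen receptor, was at 275.5, 213.6, 371.6 and 326.1 CPM in CKO mice and at 72.1, 107.5 and 71.7 CPM in CTL mice (log2 fold change 1.83 ± 0.23, SE). In young mice its log2 fold change was 0.43 ± 0.25 (SE; adjusted p = 0.804 by edgeR). Selp, the P-selectin of alpha granules, was at 546.6, 551.5, 585.5 and 519.4 CPM in CKO mice, with little spread, and at 300.8, 214.5 and 209.9 CPM in CTL mice (log2 fold change 1.18 ± 0.17, SE). Its young log2 fold change was 2.49 ± 0.58 (SE; adjusted p = 0.138 by edgeR), with 100.9 ± 45.0 CPM in CKO and 17.8 ± 19.6 CPM in CTL and no overlap between them (SD, n = 4 each). Windows of Pf4 (chr5:90772185-90772484, plus strand) and Itga2b (chr11:102469834-102470133, minus strand) are shown as the leading granule and integrin genes. Capitals mark a GATA site (AGATAA or TGATAA) in Pf4 and a core of the interferon-stimulated response element (a pair of TTTC with 2 bases between) in Itga2b, searched on both strands.
Pf4: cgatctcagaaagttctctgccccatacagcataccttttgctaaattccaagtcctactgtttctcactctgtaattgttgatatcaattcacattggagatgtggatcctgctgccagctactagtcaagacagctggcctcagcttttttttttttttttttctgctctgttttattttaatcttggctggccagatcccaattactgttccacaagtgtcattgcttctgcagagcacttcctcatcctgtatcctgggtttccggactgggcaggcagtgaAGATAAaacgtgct
Itga2b: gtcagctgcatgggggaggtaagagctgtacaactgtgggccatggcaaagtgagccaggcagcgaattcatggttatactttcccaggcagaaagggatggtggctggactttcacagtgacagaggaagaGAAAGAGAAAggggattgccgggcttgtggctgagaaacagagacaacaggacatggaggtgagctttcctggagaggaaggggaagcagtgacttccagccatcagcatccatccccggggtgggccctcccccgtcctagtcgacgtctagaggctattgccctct
GATA sites occurred in 21% of all genes with a window, in 12.3% of the tested ones and in 4 of the 21 higher genes (19%). The interferon element core occurred in 3.99%, in 3.83% and in 3 of 21 (14.3%). The 10 windows of lower genes held the metal element core in 3, the GATA site in 2 and the interferon element core in 1.

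Rap1b and Plek act inside platelets, Rap1b as the small GTPase that switches integrins on and Plek as pleckstrin, a protein kinase C substrate. Rap1b was at 1647, 1758, 1457 and 1677 CPM in CKO mice and at 891.7, 539.4 and 486.4 CPM in CTL mice, and Plek was at 282.5, 360.0, 285.9 and 244.4 CPM against 168.1, 73.4 and 95.7 CPM. The log2 fold changes were 1.35 ± 0.21 and 1.37 ± 0.26 (SE). Both rose in young HSCs, with log2 fold changes of 1.01 ± 0.15 for Rap1b and 1.30 ± 0.17 for Plek (SE; adjusted p = 0.0117 and 0.0114 by edgeR), and both stayed called there with the Y-linked covariate (adjusted p = 0.0475 for each by the same test). Tgfb1, the latent growth factor that platelets carry, was at 372.1, 290.8, 321.1 and 347.7 CPM in CKO mice and at 157.8, 198.7 and 151.6 CPM in CTL mice, and its level in CKO 121, 329.4 CPM, was within the CKO range. Its young log2 fold change was 0.07 ± 0.27 (SE; adjusted p = 0.984 by edgeR). Other platelet genes had groups apart without being called, among them Gp1bb, a chain of the von Willebrand factor receptor, at 192.9 ± 51.7 against 65.9 ± 31.8 CPM, and Vwf, its ligand, at 155.2 ± 33.7 against 65.7 ± 31.4 CPM (SD, n = 4 and 3). Of the transcription factors of the lineage, Nfe2 had a log2 fold change of 0.06, Gfi1b of -0.03 and Fli1 of 0.67, with overlapping groups for each (adjusted p = 0.922, 0.971 and 0.374 by edgeR). In young mice that of Fli1 was 0.57 (adjusted p = 0.218).

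The genes taken as markers of this comparison were Mt1, Pf4, Ache, Vwa1 and Vcam1. Ache, the acetylcholinesterase gene, which erythroid and megakaryocytic cells also express, was at 65.8, 70.5, 72.0 and 42.0 CPM in CKO mice and at 4.10, 7.86 and 14.9 CPM in CTL mice, a log2 fold change of 2.81 ± 0.42 (SE). Ache was not called without library A of CTL 114 (log2 fold change 2.36, adjusted p = 0.0836 by edgeR) or without library A of CKO 122 (adjusted p = 0.0612), and its log2 fold change was 3.65 without library B of CTL 114. CKO 121 lay with the CTL mice at 14.4 CPM. In young mice Ache was at 20.8 ± 5.6 CPM in CKO against 4.95 ± 2.54 CPM in CTL, with no overlap between groups (SD, n = 4 each; adjusted p = 0.0949 by edgeR). Of the 21 cholinergic genes, 2 were tested, and the other, Chrnb1, had a log2 fold change of -1.04.

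Vwa1, an extracellular matrix protein with a von Willebrand factor A domain, was scarce. It had 27, 36, 18 and 51 counts in CKO 78, 81, 94 and 122, 28 in CKO 121, and 0 in each CTL mouse, CTL 124 included; all 27 counts of CKO 78 came from its library B. Summed over the groups it was at least 24.3-fold higher in the 4 CKO mice, against a floor of 3 counts over the 3 CTL mice, and it was not called (adjusted p = 0.0753 by edgeR). With 0 counts in the CTL mice, Vwa1 passed the filter on low counts only through the CKO mice, so this p-value is no support for a difference. Here CKO 121 sided with its label. Young mice had between 0.185 and 2.09 CPM in CKO and between 0 and 3.35 CPM in CTL, too few counts to be tested.

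Vcam1, the adhesion molecule that binds the integrin VLA-4 and that marrow macrophages and endothelium carry at high level, was the marker that was lower. It was at 0.450, 0.707, 0.409 and 0 CPM in CKO 78, 81, 94 and 122, from 0 to 7 counts per mouse, and at 19.9, 15.7 and 10.5 CPM in CTL 65, 99 and 114. The counts gave a 38.3-fold difference with a 95% interval from 22.1 to 72.9 for counting error alone. Of the 275 CTL counts, 184 came from library A of CTL 65, whose library B held 0. Without library A of CTL 65 the difference was 16.3-fold, below the interval, the groups overlapped and the gene was too scarce to be tested. All 55 counts of CTL 114 came from its library B, without which the groups overlapped and Vcam1 was again too scarce to be tested. Without library B of CKO 81, which held 7 of the 13 CKO counts, it was 76.8-fold. CKO 121 had 1.63 CPM, between the groups, and CTL 124 had 15.2 CPM. Over the 9 aged mice as labelled its log2 fold change was -4.53 ± 0.81 (SE; adjusted p = 0.205 by edgeR), and in young mice it was -0.71 ± 0.60 (adjusted p = 0.894), with CKO mice from 2.11 to 17.2 CPM and CTL mice from 4.10 to 19.0 CPM. Stab2, a scavenger receptor of sinusoidal endothelium, was also lower, with 0 counts in all 4 CKO mice and 21.0, 26.6 and 1.91 CPM in CTL mice, at least 161-fold lower by the floor of 3 counts over the CKO mice. With 0 counts in the CKO mice, Stab2 passed the filter on low counts only through the CTL mice. Its call therefore describes these counts and is no support for a difference. Library A of CTL 65 held 183 of its 266 CTL counts, and without it the bound was at least 64.3-fold and the log2 fold change of Stab2 was no longer called (adjusted p = 0.0933 by edgeR). All 10 Stab2 counts of CTL 114 came from its library B, without which the groups overlapped. CTL 124 had 0 counts and CKO 121 had 6.52 CPM, each on the side of the other genotype.
Other genes of macrophages were followed beside Vcam1. Mrc1 was at 0.900, 0, 4.30 and 2.66 CPM in CKO mice and at 18.7, 12.2 and 8.58 CPM in CTL mice, and C1qa was at most 1.01 CPM in CKO mice and at least 3.13 CPM in CTL mice; neither was called (adjusted p = 0.284 and 0.256 by edgeR). All 173 Mrc1 counts of CTL 65 came from its library A, and all 45 of CTL 114 came from its library B. The groups overlapped for Mrc1 without library A of CTL 65 and also without library B of CTL 114. All 29 C1qa counts of CTL 65 came from its library B, without which the groups overlapped for C1qa. Of 18 monocyte and macrophage markers 9 were tested and 0 called, against 0.208% of all genes called higher and 0.125% lower. Of the 9, 7 were negative and 2 positive, against 49.2% positive over all genes, and the median was -1.95. Summed, the list was between 647.4 and 842.0 CPM in CKO mice and between 677.9 and 827.0 CPM in CTL mice, most of it from Lyz2. The lysosomal Cd68 went the other way (44.4 ± 10.8 against 12.3 ± 8.83 CPM, SD) and was not called (adjusted p = 0.1125 by edgeR). Its groups overlapped without library B of CKO 122, which left that mouse at 7.56 CPM, and without library A of CTL 114. Fcgr1 was at 0 in all 7 mice. Stromal and endothelial markers, 5 tested and 0 called, were all negative, with a median of -1.09. The part of such cells in the Vcam1 and Stab2 values was not tested.

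**Figure D2:**
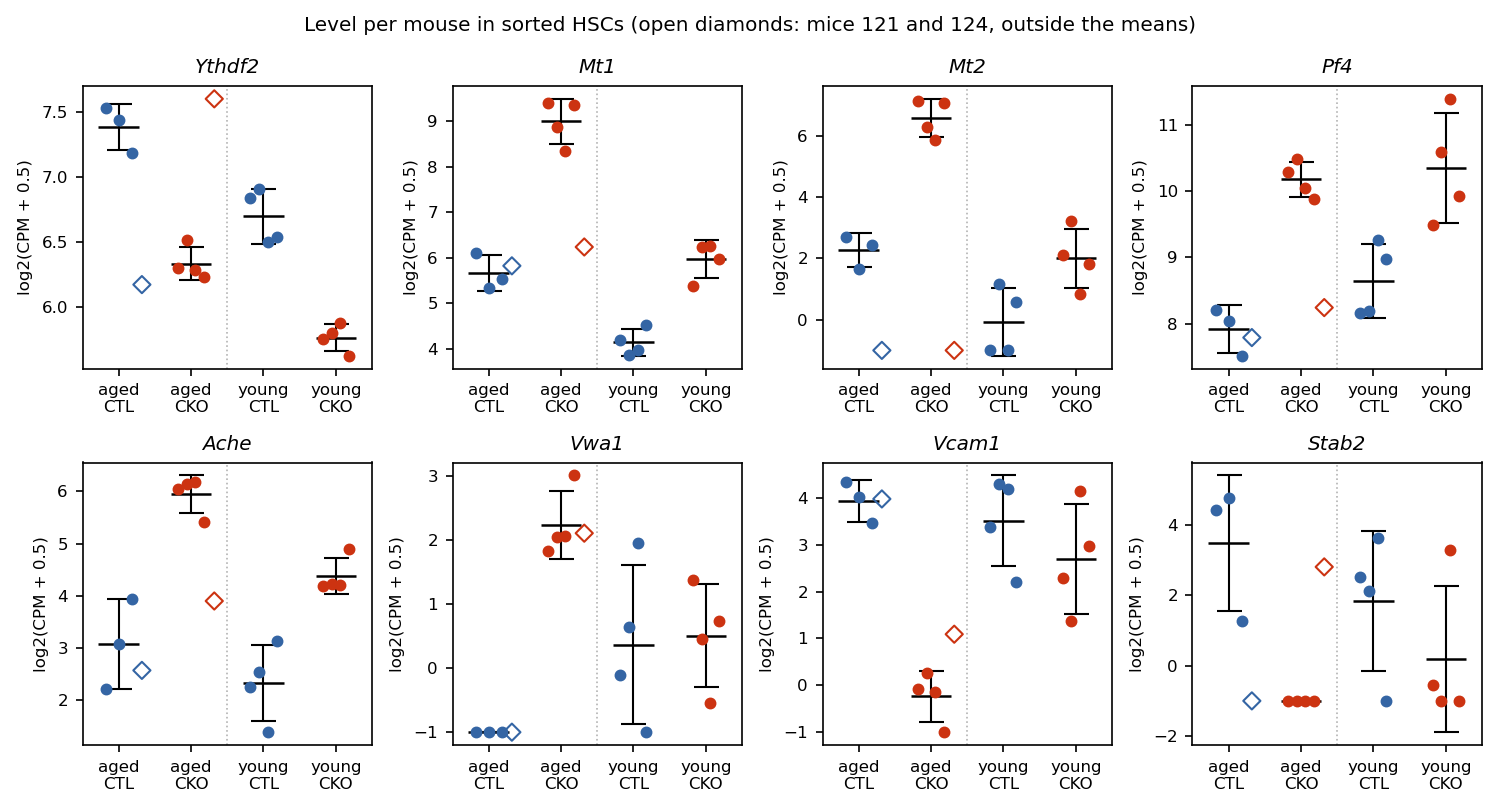
Level of Ythdf2, the 5 markers, Mt2 and Stab2 in each mouse as log2(CPM + 0.5), aged and young sets scaled separately; filled points are mice, black bars their mean and SD, and open diamonds are aged CTL 124 and CKO 121, which are outside the means. The 4 aged CKO mice are clear of the 3 aged CTL mice in every panel, and both diamonds change sides for Ythdf2 and Stab2. For Mt1, Mt2, Pf4 and Ache the diamond of CKO 121 lies nearer the CTL mice.

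Adhesion molecules as a group had no common direction. Of 38 listed, 33 were tested, Itga2b and Selp were called higher, Vcam1 was called lower (0.208% and 0.125% over all genes tested), and the median log2 fold change was 0.152. The alpha4 chain of VLA-4, Itga4, was at 61.7 ± 14.6 against 119.8 ± 41.9 CPM, and endomucin, Emcn, at 13.4 ± 6.98 against 52.1 ± 20.7 CPM (SD, n = 4 and 3); neither was called, and their young log2 fold changes were -0.45 ± 0.21 and -0.76 ± 0.23 (SE; adjusted p = 0.703 and 0.375 by edgeR).

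Several called genes are ones that were described elsewhere as higher in aged than in young HSCs. Of 41 such genes, 39 were tested, 5 were called higher and 0 lower, against 0.208% and 0.125% of all genes tested, and 31 were positive, against 49.2% of all genes, with a median of 0.507; the 5 were Mt1, Mt2, Selp, Clca3a1 and Clu. Clca3a1, a secreted regulator of chloride channels, was at 274.3, 180.2, 216.8 and 374.3 CPM in CKO mice and at 65.5, 62.9 and 62.7 CPM in CTL mice (log2 fold change 2.03 ± 0.24, SE). CKO 121 matched the CTL mice with 63.5 CPM. In young mice Clca3a1 was at 32.3 ± 3.89 against 26.9 ± 8.62 CPM (SD, n = 4 each; adjusted p = 0.911 by edgeR). Clu, the extracellular chaperone clusterin, was at 673.2, 420.1, 390.0 and 919.3 CPM in CKO mice and at 98.6, 140.6 and 50.2 CPM in CTL mice (log2 fold change 2.65 ± 0.37, SE), with 15.2 CPM in CKO 121, below every CTL mouse. Young CKO mice, at 53.8 ± 10.6 CPM, were all above young CTL mice, at 18.2 ± 8.87 CPM (SD; adjusted p = 0.0700 by edgeR). In young mice 28 of 36 tested genes of the list were positive, against 49.9% of all genes, with a median of 0.392, and 1, Mt1, was called, against 0.13% of all genes tested.

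Other higher genes encode secreted or signaling proteins. Slpi, the secreted inhibitor of leukocyte proteases, was at 31.4, 41.3, 31.1 and 46.6 CPM in CKO mice and at 3.78, 3.49 and 3.43 CPM in CTL mice (log2 fold change 3.38 ± 0.37, SE). Gdf15, a stress-induced cytokine of the TGF-beta family, had 135, 131, 30 and 113 counts in CKO 78, 81, 94 and 122 and 5, 0 and 3 counts in CTL 65, 99 and 114, a 28.2-fold difference (95% interval 14.2 to 65.8, counting error only). It became 58.7-fold without library A of CTL 65 and 18.9-fold without library B of that mouse. Gdf15 was called in 3 of the 7 fits that left out 1 mouse. Il12a, which encodes the p35 subunit of IL-12 and IL-35, was at 129.7, 119.0, 108.0 and 124.8 CPM in CKO mice and at 53.8, 50.2 and 68.8 CPM in CTL mice (log2 fold change 1.05 ± 0.19, SE), and its young groups did not overlap either (adjusted p = 0.454 by edgeR).
The transcriptional coregulators Cited2, which HSC maintenance is known to need, and Cited4 were both called: Cited2 at 518.9 ± 10.7 against 277.8 ± 63.3 CPM and Cited4 at 34.8 ± 13.6 against 4.70 ± 1.64 CPM (SD, n = 4 and 3). Vldlr, a lipoprotein receptor, was at 163.9 ± 59.7 against 35.1 ± 18.7 CPM, and its young groups were also apart. The other higher genes included Litaf, Ssbp4, Reep2 and Tm7sf3, each between 1.83- and 4.98-fold apart by summed counts, and the scarce Col18a1, Abca4 and Zfp619. Zfp619 had 3 counts over the CTL mice, a 51.1-fold difference with a 95% interval from 17.3 to 249.5 for counting error. It was 102.5-fold without library B of CTL 65 and 39.9-fold without library A of that mouse. Zfp619 was called in 0 of the 7 fits that left out 1 mouse, and CKO 121 lay in the CKO range for it at 12.6 CPM.

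Ebi3, which encodes the subunit shared by IL-27 and IL-35, was at 10.8, 9.50, 17.4 and 5.32 CPM in CKO 78, 81, 94 and 122 and at 94.4, 84.7 and 78.2 CPM in CTL 65, 99 and 114 (log2 fold change -3.01 ± 0.34, SE). CKO 121 had 100.2 CPM and CTL 124 had 67.5 CPM, both nearer the CTL mice. Its young levels were 95.4 ± 31.9 against 95.2 ± 15.2 CPM (SD, n = 4 each), with a log2 fold change of 0.00 ± 0.22 (SE). Ltb, the lymphotoxin beta subunit that anchors lymphotoxin to the membrane, was at 63.5, 59.7, 113.1 and 32.5 CPM against 370.8, 408.8 and 451.5 CPM (log2 fold change -2.62 ± 0.31, SE), and in young mice its log2 fold change was 0.28 ± 0.22 (SE; adjusted p = 0.893 by edgeR). Fbp1, the gluconeogenic fructose bisphosphatase, was at 10.01, 9.29, 8.18 and 5.03 CPM against 43.1, 106.6 and 56.1 CPM (log2 fold change -3.06 ± 0.37, SE). Fbp1 was the 1 lower gene other than Ythdf2 that passed the adjusted threshold in young mice, where it fell by 1.81 ± 0.27 on the log2 scale (SE; adjusted p = 0.0145 by edgeR), with an adjusted p of 0.0885 under the Y-linked covariate.

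H2-Ab1 and H2-Eb1 encode chains of MHC class II, which presents peptides to CD4+ T cells. H2-Ab1, the beta chain of I-A, was at 257.7, 137.4, 223.1 and 166.8 CPM in CKO mice and at 414.5, 450.8 and 459.9 CPM in CTL mice, a log2 fold change of -1.18 ± 0.21 (SE). H2-Eb1, the beta chain of I-E, was at 74.5, 19.7, 33.7 and 34.2 CPM against 136.5, 224.1 and 149.3 CPM, a log2 fold change of -2.06 ± 0.36 (SE). CTL 124 was as low as the CKO mice in both, with 129.9 and 26.9 CPM, and CKO 121 was above every other aged mouse, with 697.8 and 331.5 CPM. With both mice as labelled the log2 fold changes were -0.29 ± 0.45 and -0.43 ± 0.73 (SE; adjusted p = 0.878 and 0.892 by edgeR). In young mice the signs were positive, 0.67 ± 0.17 for H2-Ab1 and 1.28 ± 0.29 for H2-Eb1 (SE; adjusted p = 0.229 and 0.120 by edgeR). The invariant chain Cd74, not called, was at 192.0 ± 123.3 against 816.3 ± 367.3 CPM in the 7 aged mice (SD) and had a young log2 fold change of 1.40 ± 0.35 (SE; adjusted p = 0.213 by edgeR).
Cd1d1, the lipid-presenting relative of class I, was at 58.8 ± 14.9 against 139.0 ± 8.10 CPM, and the interferon-inducible GTPase gene Gbp8 at 17.2 ± 5.15 against 55.8 ± 14.3 CPM (SD, n = 4 and 3). Selenop, the selenium carrier, was at 296.6, 266.5, 265.2 and 269.1 CPM in CKO mice and at 504.1, 486.2 and 459.6 CPM in CTL mice, and both CKO 121 (268.3 CPM) and CTL 124 (250.6 CPM) were near the CKO mice. Library A of CTL 65 had 838.5 CPM of Selenop, and without it CTL 65 was at 281.4 CPM, the groups overlapped and the gene was not called (adjusted p = 0.264 by edgeR). Upp1 was likewise near them in both, with 27.4 and 26.5 CPM against 21.5 to 27.1 CPM in CKO mice and 49.9 to 87.4 CPM in CTL mice. By fold, Upp1, a uridine phosphorylase, and the remaining lower genes Zfp868, Mettl7a1 and Limd2 were between 2.14- and 2.5-fold apart by summed counts.

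The 2 mice left out were placed on a scale for each called gene where 0 is the mean log2 level of the 3 CTL mice and 1 that of the 4 CKO mice. For the 25 higher genes, CKO 121 had a median of 0.0979 and was nearer the CTL mean in 20 genes, and CTL 124 had a median of -0.0563 and was nearer the CTL mean in 22. For the 14 lower genes without Ythdf2, CKO 121 had a median of -0.0057 and was nearer the CTL mean in 11, whereas CTL 124 had a median of 1.03 and was nearer the CKO mean in 9. These values are given without a test.

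With all 9 aged mice as labelled, 0 of 11961 genes were called, 0% of the genes tested by edgeR's quasi-likelihood test. At an unadjusted p below 0.05, 532 were higher (4.45%) and 676 lower (5.65%), and DESeq2 called 54 and 50. The 9 mice include the 7, so the fits are not independent, and their values are only set side by side. The 25 higher genes had a median log2 fold change of 1.98 over 9 mice and 2.20 over 7, and the 14 lower genes -0.938 over 9 and -1.60 over 7. Adjusted p-values of the 39 genes over 9 mice were between 0.205 and 0.892. Keeping CTL 124 and leaving out CKO 121 gave 12 higher and 4 lower calls, and the reverse gave 0 and 0.

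The young mice share no sample with the aged mice. In that comparison 15 of 11526 genes were called higher (0.13%) and 5 lower (0.0434%) by edgeR, and 491 (4.26%) and 323 (2.8%) passed an unadjusted p of 0.05. Of the 25 genes higher in the aged mice, 24 were tested, Abca4 being too scarce. All 24 were positive in young mice, with a median log2 fold change of 0.924; 14 passed the unadjusted threshold, and 4, Mt1, Pf4, Rap1b and Plek, passed the adjusted one. Of all 11394 genes tested in both sets, 56.4% of those positive in the aged mice were positive in young mice, and 56.2% of those negative in the aged mice were negative in young mice. Of the 14 lower genes, 7 were negative and 7 positive in young mice, with a median of -0.0333, 2 were lower at an unadjusted p below 0.05 and 4, H2-Eb1, H2-Ab1, Gbp8 and Zfp868, were higher at it. Y-linked reads were present in 3 young CTL mice and 1 young CKO mouse. With their level as a covariate, 24 of the 24 higher genes were still positive, 9 passed the unadjusted threshold and 3 were called. Leaving out 1 young mouse, edgeR called 0 genes in either direction without CTL 1 or without CTL 2, 4 higher without CTL 3, 7 without CTL 4, and 5, 6, 14 and 10 without CKO 1, 2, 3 and 4.

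**Figure D3:**
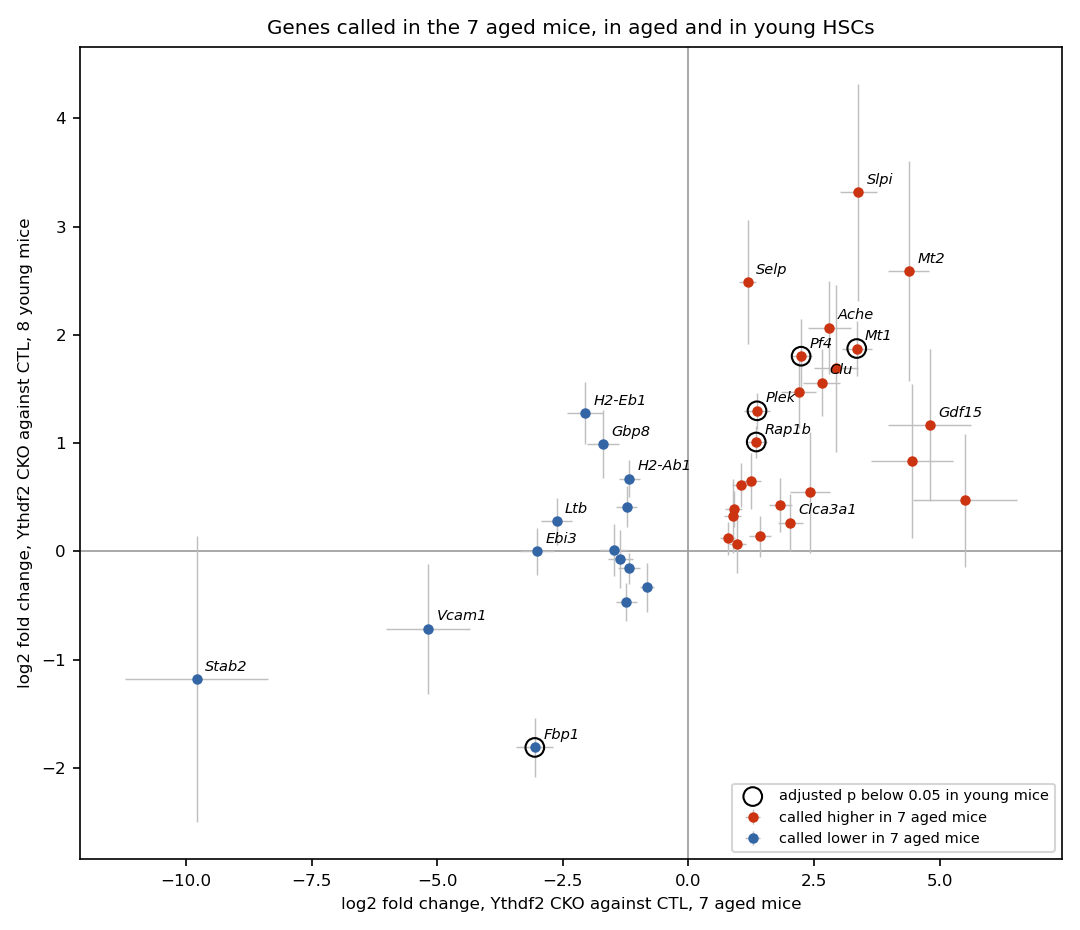
Log2 fold change of the 38 called genes tested at both ages, Ythdf2 left out, in the 7 aged mice (x axis) and in the 8 young mice (y axis), with bars of 1 SE; black rings mark 5 genes with an adjusted p below 0.05 in young mice. All 24 genes higher in aged mice lie above 0 on the y axis, whereas the 14 lower genes lie on both sides of it.

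Whether the genotype difference itself changed with age was tested over all 17 mice as labelled. None of 12352 genes was called (0%) by edgeR's interaction test, with a smallest adjusted p of 0.942, while 588 (4.76%) passed an unadjusted p of 0.05 and the likelihood ratio test called 4. Without CKO 121 and CTL 124, 15 genes were called, 0.121% of those tested, 1 with the aged difference above the young one and 14 below. That fit used the mice chosen by Ythdf2 and is a description. Its genes included Clca3a1 on the one side and Ebi3, Ltb, H2-Eb1, H2-Ab1, Cd74, Gbp8, Zfp868, Igtp and Gbp4 on the other.

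Of 89 interferon-stimulated genes, 87 were tested in the 7 aged mice. Of these, 0 were called higher and Gbp8 was called lower (0.125% of all genes tested), 34 were positive and 53 negative, and the median log2 fold change was -0.133. In young mice 5 of 88 were called higher by edgeR, against 0.13% of all genes tested, 71 were positive, against 49.9% of all genes, and the median was 0.455. Igtp, an interferon-inducible GTPase, was at 147.9 ± 24.5 against 195.5 ± 67.9 CPM in the 7 aged mice, with overlapping groups, and rose from 110.4 ± 15.4 to 223.4 ± 28.4 CPM in young mice (SD; adjusted p = 0.0145 by edgeR). Gbp4, another, was at 19.9 ± 15.2 against 63.1 ± 40.9 CPM in the aged mice, also with overlap, and rose from 10.6 ± 2.26 to 48.2 ± 22.4 CPM in young mice (SD; adjusted p = 0.0201 by edgeR). Over the 9 aged mice as labelled the median of the list was 0.0712, and the log2 fold change of Igtp was 0.07 ± 0.34 (SE). At an unadjusted p below 0.05 by edgeR in those mice, 12 of 87 were higher and 3 lower, against 4.45% and 5.65% of all genes. Summed, the list was between 23340 and 29370 CPM in the 4 CKO mice and between 27330 and 29560 CPM in the 3 CTL mice. CKO 121 had 28870 CPM, and CTL 124 had 20050 CPM, below every other aged mouse.
Genes of DNA replication and S phase had a positive log2 fold change in 39 of 41 cases in the 7 aged mice, against 49.2% of all genes. Their median was 0.372 and 0 were called, against 0.208% of all genes called higher and 0.125% lower. In young mice 5 of 41 were positive, against 49.9%, with a median of -0.211. Over the 9 aged mice 31 were positive, with a median of 0.255. Summed, the list was between 6459 and 7894 CPM in the 4 CKO mice and between 4726 and 6272 CPM in the 3 CTL mice. CTL 124, at 7066 CPM, and CKO 121, at 7205 CPM, were both within the CKO range. Genes of G2 and mitosis had medians of 0.279 and -0.314, with 0 of 40 called at either age, and over the 9 aged mice the median was 0.0315. Lymphoid priming genes, of which 13 were tested, had a median of -0.457 with Il12a called higher (0.208% over all genes tested). The cytokine receptor Flt3 was at 14.2 ± 3.73 against 52.8 ± 46.0 CPM (SD, n = 4 and 3) and was not called. The CTL mean fell to 28.03 ± 6.54 CPM without library A of CTL 114, which had 184.1 CPM of Flt3. No gene was called among 38 NF-kB and inflammatory genes (median 0.0149), 25 immediate early genes (median -0.054), 15 myeloid priming genes (median -0.0663), 22 listed matrix genes (median -0.0134; the called collagen gene Col18a1 is not on this list), 19 m6A readers, writers and erasers other than Ythdf2 (median -0.019), 30 genes of CCR4-NOT and mRNA decay (median -0.128) or 10 housekeeping genes (median -0.0793). Over all genes tested 0.208% were called higher and 0.125% lower, so lists of this size would seldom hold a called gene. Of the 38 NF-kB and inflammatory genes, 6 had groups apart with CKO higher and 1 with CKO lower, against 6.23% and 5.31% of all genes. Markers of other lineages were seldom testable, 2 of 10 for B cells, 4 of 11 for T and NK cells, 5 of 14 for granulocytes, 5 of 14 for erythroid cells and 2 of 10 for mast cells and basophils, and 0 of these were called.

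**Figure D4:**
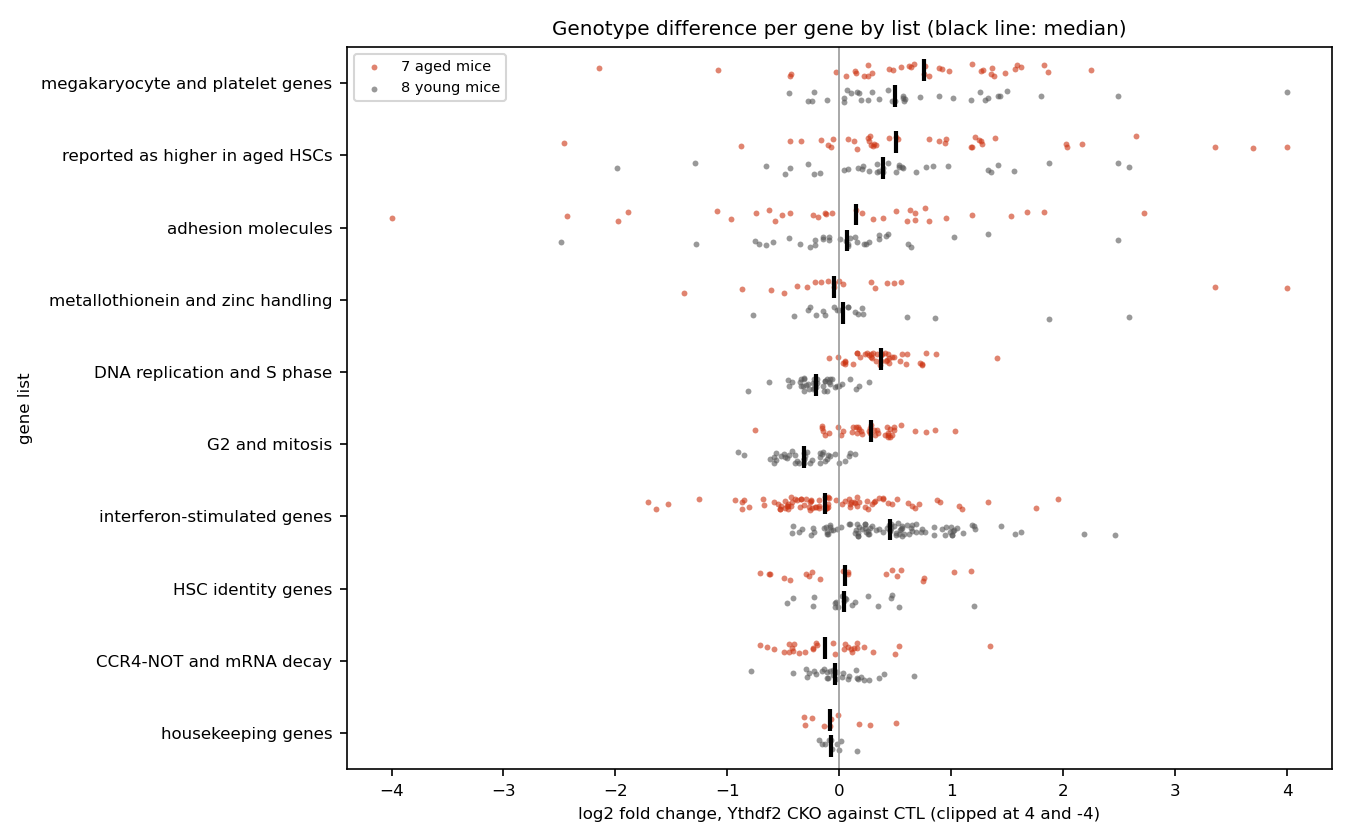
Log2 fold change of each tested gene in 10 gene lists, red for the 7 aged mice and gray for the 8 young mice, with a black line at the median and values clipped at 4 and -4. The median of the platelet list lies above 0 at both ages, and the interferon, S phase and mitosis lists have medians of opposite sign at the 2 ages.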

How the data were processed

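HSC libraries were aligned by the authors to GRCm38 (mm10 in the submitters' processing notes) with HISAT2 and counted per gene with Rsubread. What the authors deposited is a table of raw counts, not normalized, with 13108 rows, of which 20 had names turned into dates; the annotation, strand use and rule for shared reads are not given in the sources used here. Of the row names, 12886 matched RefSeq (GRCm38.p6), the source of coordinates and promoters. Promoter windows matched 21 of 25 higher and 10 of 14 lower genes.

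Counts of libraries A and B were summed per mouse; pairs differed by more than sampling noise in all 16 mice with both (chi-square per degree of freedom at least 9.93). Mice were the replicates. Tests used R 4.3.3 and edgeR 4.0.16 (filterByExpr with minimum count 10 and minimum total 15, TMM, quasi-likelihood test, Benjamini-Hochberg adjustment at 0.05 over all genes tested); the authors used likelihood ratio tests in edgeR, and the series' design text says that libraries of 1 mouse counted as replicates. SEs were obtained from the log2 fold change and the F statistic. Levels in log2 used a pseudocount of 0.5. Where a group had 0 counts, the fold is a lower bound against 3 counts; intervals are exact binomial at 95%. The analysis was checked on simulated data.

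The mice, genes and lists were chosen with earlier results of these data known. Named genes were Ythdf2, the 5 markers, Mt2, in each direction the 12 called genes of smallest adjusted p whose groups did not overlap, and up to 4 called members of each list. The other called genes, and Kit, Slamf1, Procr, Gp1bb, Vwf, Nfe2, Gfi1b, Fli1, Itga4, Emcn, Flt3, Cd68, Mrc1, C1qa, Fcgr1, Lyz2, Chrnb1, Rhoj, Thbs1, Nbeal2, Cd74, Igtp and Gbp4, were named after their values were seen. Some genes are not reported here by name.

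Alternatives were other scaling, filters, DESeq2 1.42.0, limma 3.58.1 (voom), libraries as replicates, a replicate block, library A alone, a Y-linked covariate, other sets of the aged mice, single libraries left out and each mouse left out in turn.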

Additional observations from a re-analysis of the deposited data

Results flagged for a closer look

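Single mice stood apart from the rest of their group in 15 of 164 groups of 4 mice examined, by the gap to the nearest mouse relative to the range of the group; chance gives about 5 in 100. In the 4 aged CKO mice these were Vwa1 in CKO 122 (7.54 CPM, nearest 3.68), Upp1 in CKO 122 (27.1 CPM, nearest 22.4), Selenop in CKO 78 (296.6 CPM, nearest 269.1), Litaf in CKO 78 (191.7 CPM, nearest 138.7) and Gbp4 in CKO 81 (42.6 CPM, nearest 13.2). Except for Gbp4, which was not called, these mice lay on the same side of the 3 CTL mice as the other CKO mice.

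Young CKO 3 was the high mouse for Slpi (34.3 CPM, nearest 7.44), Stab2 (9.27 CPM, nearest 0.190), Il12a (195.9 CPM, nearest 114.3), Col18a1 (7.42 CPM, nearest 2.63), Emcn (43.9 CPM, nearest 33.1) and Mrc1 (14.6 CPM, nearest 1.46). The remaining young mice apart from their group were CKO 4 for Ache (29.2 CPM, nearest 18.2), CKO 1 for Gbp8 (52.9 CPM, nearest 27.9) and Abca4 (17.5 CPM, nearest 2.04), and CTL 2 for Zfp619 (10.03 CPM, nearest 3.21).

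The genotype difference in aged minus that in young mice passed an adjusted p of 0.05 in edgeR without CKO 121 and CTL 124 for 10 named genes. It was 1.78 for Clca3a1, -3.02 for Ebi3, -2.90 for Ltb, -1.64 for Zfp868, -3.33 for H2-Eb1, -1.84 for H2-Ab1, -2.69 for Gbp8, -3.48 for Cd74, -1.41 for Igtp and -3.81 for Gbp4 on the log2 scale. Over all 17 mice as labelled none of these passed, and the smallest adjusted p of any gene was 0.942. Because mice chosen by their Ythdf2 level entered it, the smaller fit describes those mice.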

How the results depend on the processing

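Direction was followed for 54 named genes, without Ythdf2, Nfe2, Gfi1b, Fli1, Fcgr1, Lyz2, Chrnb1, Rhoj, Thbs1 and Nbeal2. Among the 54 were the 39 called genes, whose groups were apart in these 7 mice, so refits of the same mice could hardly reverse them. Within the 7 aged mice, 53 of the 54 genes kept their direction in each setting in which they could be fitted, which was all 30 settings for 50 genes and at least 23 for the others. The exception lay close to 0: the log2 fold change of Kit was -0.0335 with library A alone and from -0.0227 to 0.222 with 1 mouse left out, and over the 9 mice as labelled that of Igtp was 0.0712, also reversed. Counts of calls moved more, and the cause was not tested. In the 7 mice, higher and lower calls were 159 and 132 by likelihood ratio test, 168 and 138 by DESeq2, 41 and 44 by voom, 226 and 222 with libraries as replicates, 3 and 0 with library A alone, 12 and 4 with CTL 124 kept, 0 and 0 with CKO 121 kept, 0 and 0 with both kept, and 11 and 6 in the 5 mice without Y-linked reads. With 1 of 12 libraries left out they were 5 and 3 without library B of CTL 114, 14 and 8 without library A of CKO 122, 22 and 9 without library B of CKO 78, and within 1.5 times otherwise; these last settings were chosen after seeing the data. With 1 mouse left out they were 9 to 34 and 4 to 32. In the 9 mice they were 42 and 34 by likelihood ratio test, 54 and 50 by DESeq2, 136 and 284 with libraries as replicates, and 0 to 12 and 0 to 4 with 1 mouse left out, the 12 and 4 being without CKO 121. In young mice they were 54 and 13, 58 and 19, and 66 and 24 by these 3 routes, 8 and 1 with the Y-linked covariate, and 0 to 14 and 0 to 4 with 1 mouse left out. The age difference gave 4 calls by likelihood ratio test and 15 in 15 mice. Other scaling and filters left every count within 1.5 times.

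With libraries as replicates and a replicate block of the library letter, calls in the 7 mice were 83 and 76. With a replicate block of the mouse number in young mice they were 12 and 2. Young mice shared only a number: the correlations of same-numbered mice were 0.0526, -0.0214, 0.0371 and 0.00407, and mouse 3 alone correlated best with its own number. Low counts limit Vwa1, Vcam1, Stab2, Zfp619 and Gdf15.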
